A study of Danio rerio with 94 samples.

Results

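The genes described here are the nucleotidases and purinergic receptors of a targeted zebrafish expression panel. They were taken by symbol, under a rule set with earlier results of these data known. Every measured gene whose name begins with NT5, ENTPD, P2RX, P2RY or ADORA was taken. This gave 6 of the 3068 genes of the table, of which 3 are nucleotidases (NT5E, NT5DC2 and ENTPD1) and 3 are receptors (P2RY13, P2RY10 and ADORA2AA). In the study, embryos of the tropical 5D line of zebrafish (5D WT in the labels) were exposed to naphthalene or to 1 of 21 alkyl naphthalenes at 20 µM in DMSO from 6 to 24 hours post fertilization (hpf), then held in clean medium until RNA was taken at 48 hpf. Control embryos were handled in the same way without a chemical. The exposures were split over 2 days, with 11 chemicals on each. Each chemical had 4 pools of 6 whole embryos that looked normal, all from 1 exposure day, and the controls had 5 pools, 2 of day 1 and 3 of day 2. The embryos were exposed 8 to a vial and pooled by vial, but the description does not settle whether every pool came from a vial of its own. The p-values therefore measure the spread between these pools, which for the controls includes the difference between the days.

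Extracellular ATP and ADP are danger and signalling molecules that act on P2X and P2Y receptors at the cell surface. ENTPD1 (CD39) strips them to AMP, and NT5E (CD73) turns AMP into adenosine, which acts on adenosine receptors, of which the one encoded by ADORA2AA is known to raise cyclic AMP. This step from an inflammatory to a calming signal is best known in immune cells and in the vessel wall of mammals. NT5DC2 carries a domain related to the 5′-nucleotidases of the cytosol, but its substrate is not well established.

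The values are log2 CPM, the reads of a gene scaled to the size of its library, from TempO-Seq, an assay in which pairs of short probes are ligated on an mRNA and sequenced. From the lattice of the values the whole number of reads behind each could be recovered, for 100% of the 185635 values under 1000 reads (within 0.05 reads). These reads are counts after the authors' adjustment for exposure day, and a pool held a total of 7210366 to 16538138 reads (control pools 8143235 to 12695269 reads). The 6 genes divided sharply by level. NT5DC2 (916 to 2301 reads) and ENTPD1 (422 to 1427 reads) had reads in every pool. ADORA2AA ranged between 0 and 84 reads, NT5E between 0 and 64, P2RY13 between 0 and 29 and P2RY10 between 0 and 17. A value of -2.39 log2 CPM stands for 0 reads. The panel probes a gene at 1 or a few short sites, so levels are compared here between groups and not between genes.

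NT5DC2 transcripts were lower than in controls after exposure to 1,7-dimethylnaphthalene, 2,7-dimethylnaphthalene and 2-ethylnaphthalene, where they stood at 62.9%, 64.1% and 69.4% of the control level. With 1,7-dimethylnaphthalene the 4 pools were at 6.62, 6.95, 6.35 and 7.07 log2 CPM, against 7.63, 7.23, 7.66, 7.44 and 7.14 in the 5 control pools. Every exposed pool of that chemical lay below every control pool. The fold change was -0.67 on the log2 scale (SE 0.14, 95% confidence interval -0.94 to -0.40), with a limma adjusted p of 0.00064 over all 3068 genes. In whole embryos, fewer cells that make a transcript and less transcript per cell cannot be told apart.

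For 2,7-dimethylnaphthalene, exposed on the other day, NT5DC2 was at 6.75, 6.87, 6.92 and 6.55 log2 CPM, also below all 5 control pools. Its fold change was -0.64 (SE 0.14, 95% confidence interval -0.91 to -0.37, limma adjusted p = 0.0025). For 2-ethylnaphthalene the pools were at 6.44, 7.06, 6.98 and 7.08 log2 CPM, and the fold change was -0.53 (SE 0.14, limma adjusted p = 0.036). Pool A of 2-ethylnaphthalene stood far below its 3 companions, and without it the fold change was -0.38 with a limma adjusted p of 0.36. The change with 2-ethylnaphthalene also failed the adjusted p without control pool 1A, 2A or 2B (adjusted p of 0.14, 0.15 and 0.062) and against the controls of the same day (adjusted p = 0.15).

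**Figure D1:**
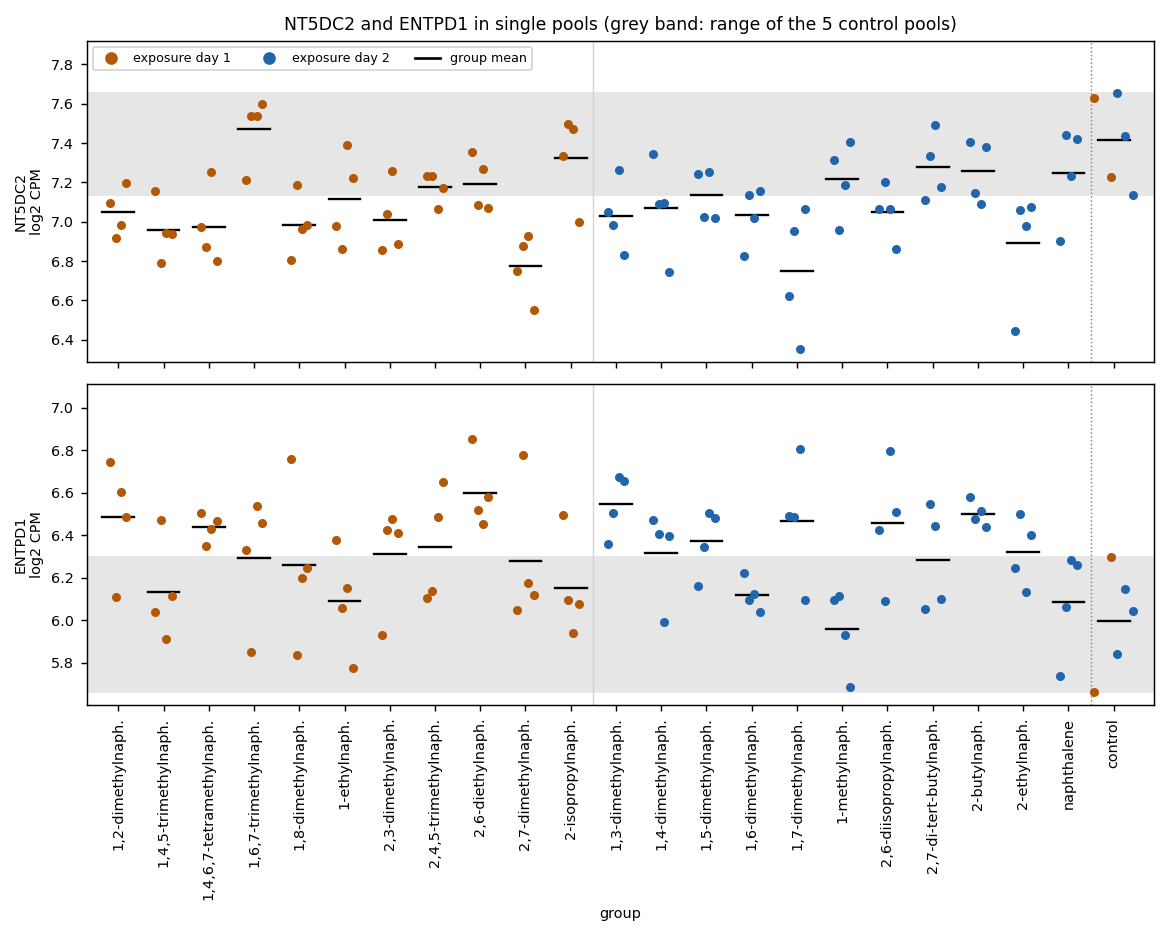
Level of NT5DC2 (top) and ENTPD1 (bottom) in log2 CPM in each pool, for the 22 chemicals and, at the right, the controls; points are pools coloured by exposure day, black bars are group means and the grey band spans the 5 control pools. No exposed pool lies above the band for NT5DC2 and none below it for ENTPD1. All groups are set against the same 5 control pools, and no share of all genes with such a pattern is given.

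The share of all genes that fell at an adjusted p of at most 0.05 was 3.59% with 1,7-dimethylnaphthalene, 1.56% with 2,7-dimethylnaphthalene and 0.554% with 2-ethylnaphthalene. Over the 22 chemicals, NT5DC2 passed that threshold in 3, against 1.2% of all gene and chemical combinations. No change of NT5DC2 reached the further requirement of an absolute log2 fold change of 1, which 0.324% of all combinations met together with the adjusted p. By limma, 14 chemicals gave a lower NT5DC2 at an unadjusted p under 0.05, and limma with voom weights on the recovered reads passed 4 chemicals at the adjusted threshold. For neither count is a share over all genes given, and all of these comparisons use the same 5 control pools. When each chemical was fitted alone with the controls none passed, with an adjusted p of 0.17 for 1,7-dimethylnaphthalene. In a two-sided exact permutation test, all 3 chemicals gave the smallest p that 4 pools against 5 allow, 0.016, which came to 0.087 after adjustment over the 22 chemicals.

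The remaining chemicals did not pass the test, but their point estimates were nearly all on the same side. NT5DC2 was below the control mean in 21 of the 22 chemicals, with a median log2 fold change of -0.36, while the median over all genes and chemicals was -0.01. All 22 comparisons use the same 5 control pools, so these signs are not independent of each other. Such a lean was not particular to NT5DC2. In the pathway and marker lists below, ADSL was lower in 22 chemicals and PRKAR1AA, MPX and ALAS2 in 21. AK3 and SLC29A2 were higher in 22, and AHCY, GNAI2B, CEBPB and TYROBP in 21. Of the 88 exposed pools, 51 lay below the lowest control pool and 0 above the highest. For these signs, these pools and the unadjusted p, no share over all genes is given. Complete separation of the 4 exposed pools below the controls held for the 3 chemicals named above, against 2.28% of all gene and chemical combinations. Next in order came the 1,4,5-trimethyl derivative of naphthalene, at 7.16, 6.79, 6.94 and 6.94 log2 CPM (fold change -0.46, SE 0.14, limma adjusted p = 0.053).

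At the other end of the order stood the 1,6,7-trimethyl derivative of naphthalene, with NT5DC2 at 7.21, 7.54, 7.54 and 7.60 log2 CPM and a fold change of 0.06 (SE 0.14, 95% confidence interval -0.22 to 0.33). The next highest group means were those of 2-isopropylnaphthalene (7.33 ± 0.23 log2 CPM, SD, n = 4), 2,7-di-tert-butylnaphthalene (7.28 ± 0.17) and 2-butylnaphthalene (7.26 ± 0.16). Naphthalene itself, the parent ring without an alkyl group, gave 7.25 ± 0.25. The lowest means were 6.75 ± 0.32 for 1,7-dimethylnaphthalene and 6.77 ± 0.17 for 2,7-dimethylnaphthalene. Control pools averaged 7.42 ± 0.23 (SD, n = 5), and between neighbours in this order the differences were smaller than the spread between pools.

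**Figure D2:**
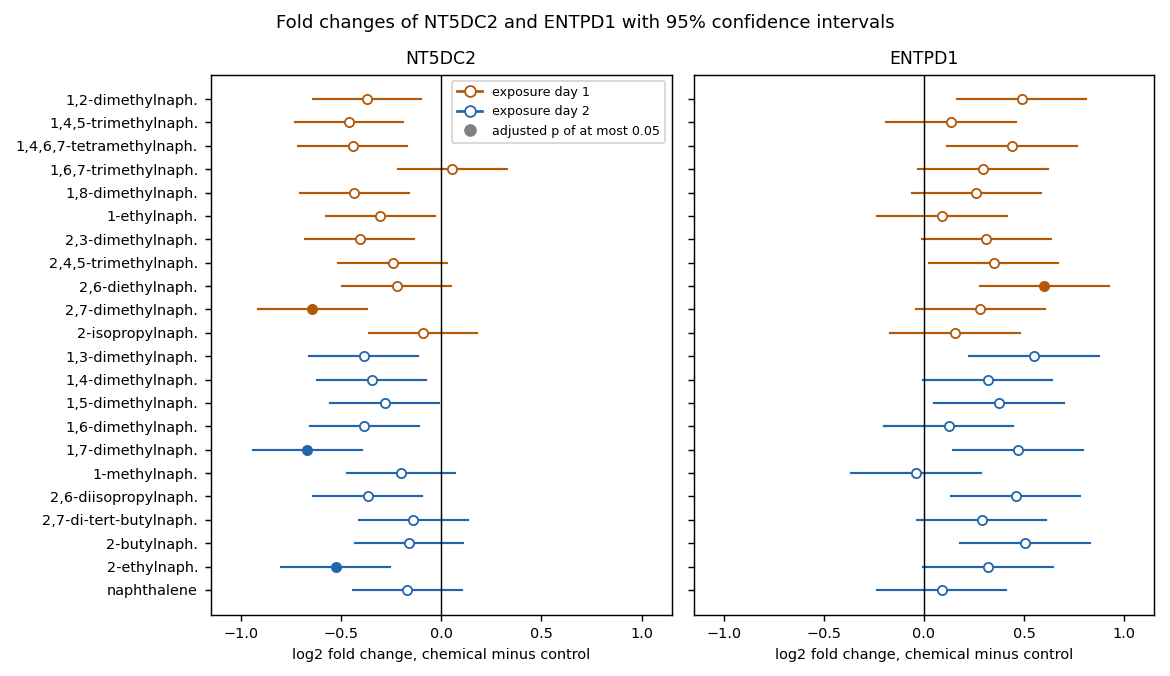
Log2 fold change of NT5DC2 (left) and ENTPD1 (right) for each chemical minus the 5 control pools, with 95% confidence intervals; colours give the exposure day and filled points an adjusted p of at most 0.05. For NT5DC2 21 of 22 points lie left of 0 and 3 are filled, and for ENTPD1 21 of 22 lie right of 0 and 1 is filled.

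The chemicals were all given at the same concentration and times, so isomers exposed on the same day could be compared directly. There were 19 such pairs among the dimethyl and trimethyl isomers, which differ only in where the methyl groups sit. For NT5DC2 the largest difference was between the 1,4,5-trimethyl derivative (mean 6.96 log2 CPM) and the 1,6,7-trimethyl derivative (mean 7.47 log2 CPM), at -0.51 (SE 0.14, 95% confidence interval -0.80 to -0.23). Its limma adjusted p was 0.011 over the 19 pairs of this gene and 0.11 over all genes. Among the dimethyl isomers, NT5DC2 with 1,5-dimethylnaphthalene exceeded that with 1,7-dimethylnaphthalene by 0.39 (95% confidence interval 0.10 to 0.67), with a limma adjusted p of 0.084 over the pairs. The difference of 1,3- minus 1,6-dimethylnaphthalene was -0.0033 with an interval of -0.29 to 0.28. That interval is not adjusted for the number of tests. Differences larger than its ends could also go unseen, as the 0.39 above did not pass over the pairs. Over all genes, 0 of the 6 genes passed in any of the 19 pairs by limma, where 0.513% of gene and pair combinations did. Voom on the recovered reads also passed 0. At an unadjusted p under 0.05 by limma, NT5DC2 had 4 pairs, P2RY10 had 3, ENTPD1 had 2, ADORA2AA had 1, and NT5E and P2RY13 had 0. No share over all genes is given for these counts. The 3 pairs of P2RY10 all set 1,8-dimethylnaphthalene against an isomer with 0 reads. In 1,8-dimethylnaphthalene 1 pool, with 17 reads, carried nearly all of them.

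Set against naphthalene, which was exposed on day 2, 17 of the 21 alkyl naphthalenes had lower NT5DC2. Only 1,7-dimethylnaphthalene, also of day 2, passed over all genes, with a difference of -0.50 (SE 0.14, 95% confidence interval -0.79 to -0.21, limma adjusted p = 0.036). The share of all gene and chemical combinations past that threshold was 0.189%. Over the 21 comparisons of this gene alone, 2,7-dimethylnaphthalene (-0.47) and 1,7-dimethylnaphthalene each had an adjusted p of 0.016. The 2,7 isomer was exposed on day 1, so its difference from naphthalene also crosses the days.

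ENTPD1, which breaks extracellular ATP and ADP down to AMP, was higher than in controls after exposure to 2,6-diethylnaphthalene. Its 4 pools were at 6.85, 6.52, 6.45 and 6.58 log2 CPM, against 5.66, 6.30, 5.84, 6.15 and 6.04 in the control pools. The exposed pools lay above all 5 control pools, and the fold change was 0.60 (SE 0.16, 95% confidence interval 0.28 to 0.92, limma adjusted p = 0.039). With this chemical, 0.75% of all genes rose at that threshold. The margin was thin: the adjusted p was 0.17 when the chemical was fitted alone with the controls, 0.11 against day 1 controls and 0.12 to 0.13 without pool B or control pool 1A. It was also over 0.05 without pool C, D or E, without control pool 2A or 2C, and with voom.

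The other chemicals leaned the same way without passing. ENTPD1 was above the control mean in 21 of 22 chemicals, with a median log2 fold change of 0.31, and 9 chemicals had an unadjusted p under 0.05. Again the 5 control pools are shared by all of these comparisons. The lean was not particular to ENTPD1. In the lists below, AK3 and SLC29A2 were higher in 22 chemicals and AHCY, GNAI2B, CEBPB and TYROBP in 21. The reverse held for ADSL, lower in 22, and for PRKAR1AA, MPX and ALAS2, lower in 21. Of the 88 exposed pools, 48 lay above the highest control pool and 0 below the lowest. No share over all genes is given for these counts. The exposed pools lay wholly above the controls for 4 chemicals, namely 2,6-diethylnaphthalene, 1,3-dimethylnaphthalene, 2-butylnaphthalene and the 1,4,6,7-tetramethyl derivative, against 1.58% of all gene and chemical combinations. For 1,3-dimethylnaphthalene the pools were at 6.36, 6.51, 6.67 and 6.65 log2 CPM (fold change 0.55, SE 0.16, limma adjusted p = 0.057). The exception was 1-methylnaphthalene, with a fold change of -0.04 (95% confidence interval -0.36 to 0.28). No change of ENTPD1 reached a log2 fold change of 1. By the planned rule ENTPD1 was therefore called in 0 chemicals, and the adjusted p alone was added after seeing the data.

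NT5E, the ecto-5′-nucleotidase that makes adenosine from AMP, was at the limit of detection. It had reads in 50 of 88 exposed pools and in 1 of 5 control pools, control pool B of day 2 with 31 reads. Of the exposed pools with reads, 14 held a single read, 4 held 2 to 4 reads and 32 held 5 or more. The difference in the share of pools with reads did not pass a two-sided Fisher's exact test (p = 0.17), nor did it on day 1 (24 of 44 exposed pools, 0 of 2 control pools, exact p = 0.22) or on day 2 (26 of 44 exposed pools, 1 of 3 control pools, exact p = 0.57). The outcome depended on the 1 control pool with reads, since without it the exact p was 0.040. With a minimum of 5 reads, 32 of 88 exposed and 1 of 5 control pools counted (exact p = 0.65). The exposed pools in these tests join different chemicals, and no share over all genes is given.

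Between chemicals, NT5E varied from absent in the counts to present in each pool. With naphthalene all 4 pools had reads (20, 1, 11 and 7), and likewise with 2,6-diethylnaphthalene (1, 3, 7 and 14). With 1-methylnaphthalene none did, and neither did the control pools other than pool B of day 2. For that chemical the summed level was at least 7.78-fold lower than in controls when 3 reads over its 4 pools are taken as the limit. The control level rests on that 1 control pool, and without it no limit can be given. Against the 3 control pools of the chemical's own day, which include it, the limit was at least 12.1-fold lower. Of the other 19 chemicals, 2 had reads in a single pool, 11 in 2 pools and 6 in 3 pools. The highest count of the series was 64 reads, in pool E of 2,7-di-tert-butylnaphthalene, whose other pools held 2, 0 and 0. By limma no chemical passed, with fold changes on the log2(CPM + prior) scale from -0.87 to 1.36, a smallest adjusted p of 0.72 and 0 chemicals at an unadjusted p under 0.05, with either limma or voom. Each of these fold changes had an SE of 1.09 on that scale.

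**Figure D3:**
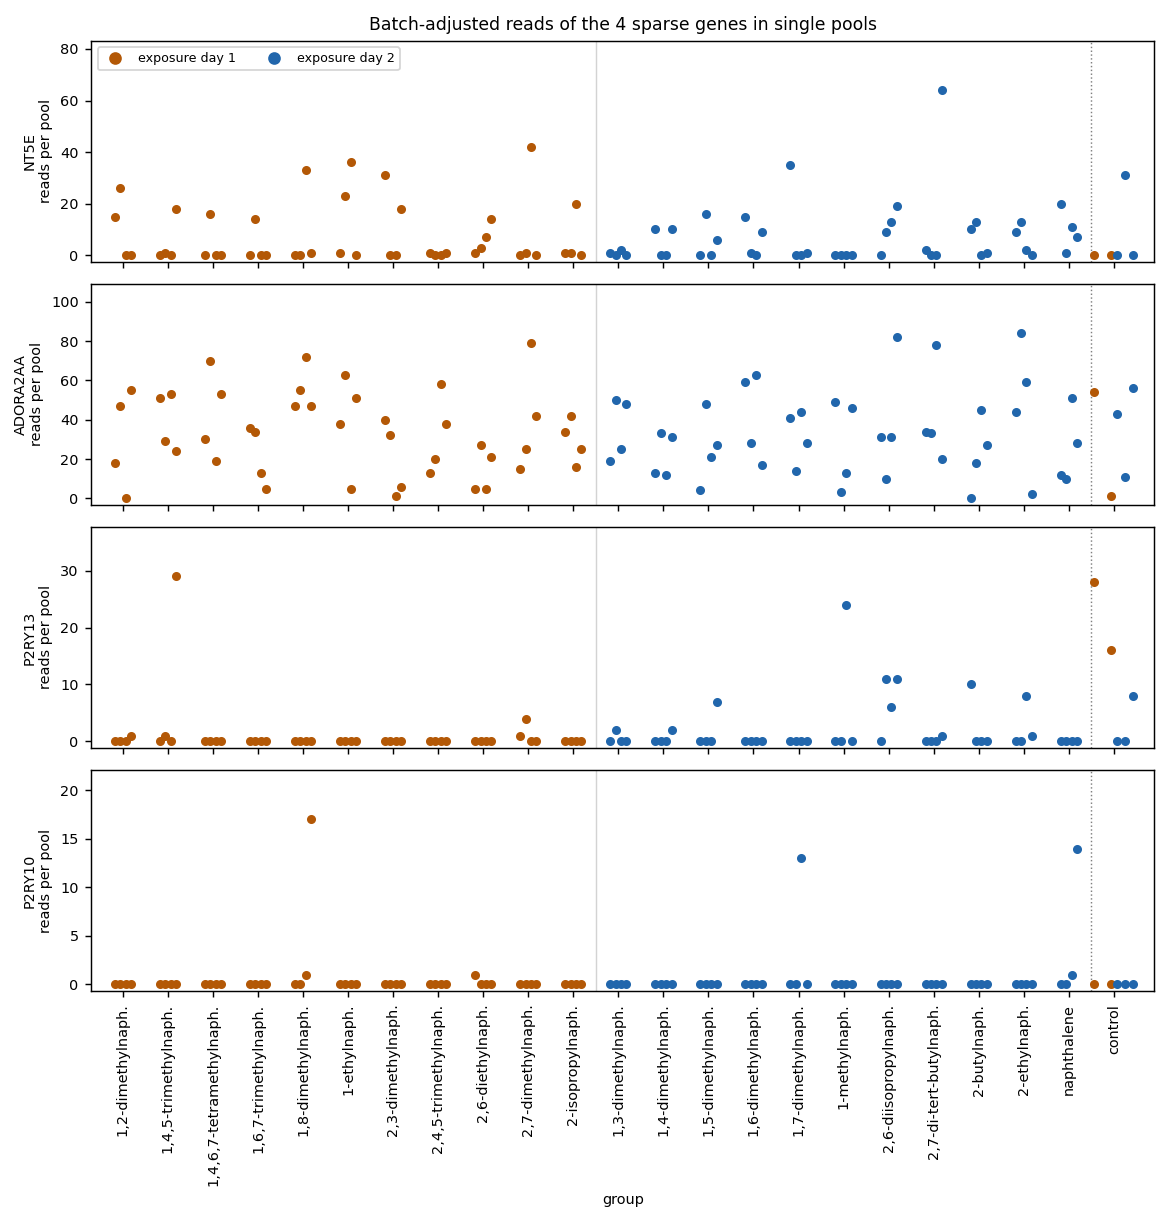
Batch-adjusted reads per pool of NT5E, ADORA2AA, P2RY13 and P2RY10 (top to bottom) for the 22 chemicals and, at the right, the controls; each point is a pool, coloured by exposure day. NT5E is scattered over most groups, whereas P2RY13 has reads in few day 1 exposed pools but in both day 1 control pools.

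P2RY13 encodes a receptor for ADP that couples to inhibitory G proteins and in mammals is found on microglia and other myeloid cells. It was read in 16 of 88 exposed pools and in 3 of 5 control pools. In 11 chemicals no pool had a read, in 7 chemicals 1 pool did, in 3 chemicals 2 pools did, and in 2,6-diisopropylnaphthalene 3 pools did, with 0, 11, 6 and 11 reads. The other large single counts of exposed pools were 29 reads in pool E of the 1,4,5-trimethyl derivative and 24 reads in pool C of 1-methylnaphthalene. The control counts were 28 and 16 reads in the day 1 pools and 0, 0 and 8 reads in the day 2 pools. For the 11 chemicals without a read the summed level was at least 12.7-fold to at least 18.0-fold lower than in controls, taking 3 reads over the 4 pools as the limit. Of the 52 control reads 44 came from the day 1 pools. Against the controls of the same day the limit was at least 30.1-fold to at least 42.6-fold lower for the 8 of these chemicals exposed on day 1, but at least 3.71-fold to at least 3.92-fold lower for the 3 exposed on day 2. Without control pool 1A the limits over all 11 were at least 7.10-fold to at least 10.0-fold lower.

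By limma against all 5 control pools, P2RY13 passed both thresholds in 1 chemical, 1,7-dimethylnaphthalene (log2 fold change -1.95, SE 0.60, adjusted p = 0.036), where 0.815% of all genes fell by that rule. The other 10 chemicals without a read had the identical fold change, SE and unadjusted p (0.0018), yet their adjusted p ran up to 0.29. The adjustment depends on how many other genes changed with a chemical, so the call of 1,7-dimethylnaphthalene alone does not set its P2RY13 apart from theirs. Fitted values of a gene at 0 reads also depend on the prior count: with log2(CPM + 1) the fold change was -0.87. The call of 1,7-dimethylnaphthalene was lost against its own day 2 controls (fold change -0.72, adjusted p = 0.70), without control pool 1A, 1C or 2C (adjusted p of 0.21, 0.13 and 0.059), without any 1 of its own 4 pools, and when it was fitted alone with the controls (adjusted p = 0.39). The SE rests on 1 spread shared by all 23 groups. For P2RY13 the chemicals without a read had an SD of 0, against 1.92 log2 CPM in the controls. A two-sided exact permutation test against all 5 control pools gave p = 0.24 for each chemical without a read.

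Separated by exposure day, the picture of P2RY13 changed. On day 1 it had reads in 5 of 44 exposed pools and in 2 of 2 control pools (two-sided Fisher's exact p = 0.020). Only 1 of those 5 exposed pools held 5 reads or more. On day 2 it had reads in 11 of 44 exposed pools and in 1 of 3 control pools (exact p = 1). Over both days the exact p was 0.056. This test and the means by day below were added for P2RY13 after its counts had been seen, so they describe those counts and are not independent of them.

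Against the controls of their own day, all 11 chemicals of day 1 passed both thresholds by limma, with fold changes from -3.80 to -2.68 and adjusted p from 0.00084 to 0.031. These 11 tests use the same 2 control pools, so they are not independent of each other. They also use 1 spread shared by all groups, which takes in the chemicals at 0 reads in every pool. None of the 11 chemicals of day 2 did, with fold changes from -0.72 to 1.17. The background was 0.243% of gene and chemical combinations called lower on day 1 and 0.124% on day 2. The mean of the day 1 chemicals minus day 1 controls was -3.63 (SE 0.59, limma adjusted p = 5.66e-05, 0.913% of genes past that threshold), and the mean of the day 2 chemicals minus day 2 controls was -0.22 (SE 0.48, adjusted p = 0.93, 0.815% of genes). The difference between the days, 3.41 (SE 0.76, 95% confidence interval 1.89 to 4.92), had a limma adjusted p of 0.042, reached by 0.0652% of genes. Without control pool 1A, 1C, 2A or 2B that p was 0.21, 0.068, 0.17 and 0.18, and with voom it was 0.17. In the controls themselves, day 2 minus day 1 was -3.08 (SE 0.89, 95% confidence interval -5.64 to -0.51, limma adjusted p = 0.58 over all genes).

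Only 2 control pools stand behind the day 1 values, since the third was set aside by the authors as an outlier and is not analysed here. With 1 of them left out the day 1 mean was -3.22 (without pool 1A, adjusted p = 0.041) and -4.05 (without pool 1C, adjusted p = 0.0043). The day 1 exposed pools held a median of 10467271 reads (7210366 to 16538138 reads), and the day 1 control pools held 8143235 and 8452368 reads. Genes without reads numbered 383 to 541 in the day 1 exposed pools and 454 and 457 in the day 1 control pools. On day 2 they numbered 293 to 412 in exposed pools and 362 to 381 in control pools. The part of this day difference in the P2RY13 result was not tested. The summed level of 13 myeloid marker genes was 435 to 705 CPM (median 557) in the day 1 exposed pools, against 461 and 484 CPM in the day 1 control pools. On day 2 the same sum was 369 to 716 CPM (median 546) in exposed pools and 582, 595 and 643 CPM in control pools. Of the 13 markers 8 had reads in all 93 pools, among them LYZ (lysozyme), MPX (neutrophil myeloperoxidase) and MPEG1.1 (macrophage perforin), and none was at 0 throughout. LYZ alone made up most of the sum, with a mean of 334 CPM in exposed and 322 CPM in control pools. MPEG1.1 had means of 12.4 and 10.3 CPM, so the sum says little about macrophage markers. The markers passed the adjusted p in 3 of 286 tests (1.05%, against a background of 1.2%), and 10 of the 13 passed with no chemical. TYROBP, an adaptor protein of myeloid cells, had reads in 42 pools, all of them exposed. MPEG1.1 rose with 1,7-dimethylnaphthalene (log2 fold change 1.07, limma adjusted p = 0.042), CEBPA fell with it (-0.69, adjusted p = 0.016), and MPX fell with the 2,4,5-trimethyl derivative (-1.11, adjusted p = 0.032). The part of these markers in the P2RY13 result was not tested.

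**Figure D4:**
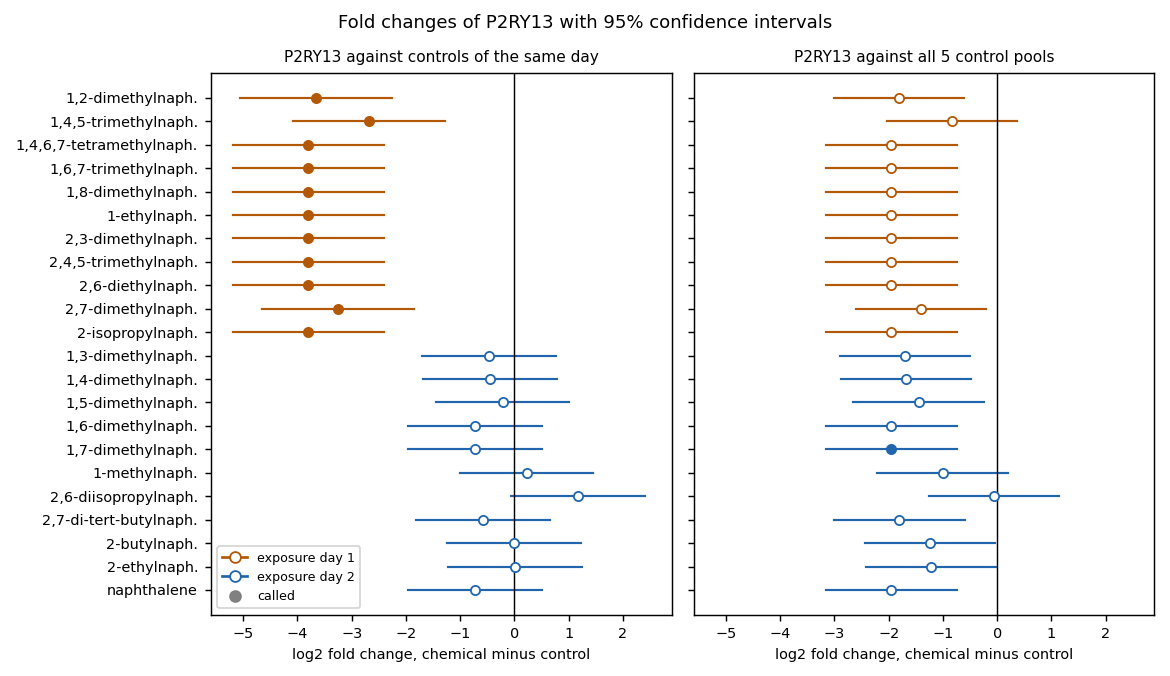
Log2 fold change of P2RY13 for each chemical against the controls of the same exposure day (left) and against all 5 control pools (right), with 95% confidence intervals; colours give the exposure day and filled points calls, past 0.05 in the adjusted p and past 1 in the size of the fold change. All 11 day 1 chemicals are filled on the left, and only 1,7-dimethylnaphthalene on the right.

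P2RY10 is grouped with the P2Y receptors by name, and its human and mouse counterparts respond to a lysophospholipid rather than to a nucleotide. It had reads in 6 of 88 exposed pools and in none of the 5 control pools. Pool D of 1,7-dimethylnaphthalene held 13 reads, pools D and E of 1,8-dimethylnaphthalene held 1 and 17, pools C and D of naphthalene held 1 and 14, and pool B of 2,6-diethylnaphthalene held 1. Summed over the group, this was at least 6.82-fold higher than in controls for 1,8-dimethylnaphthalene, at least 5.32-fold higher for naphthalene and at least 4.59-fold higher for 1,7-dimethylnaphthalene, with 3 reads over the 5 control pools as the limit. Against the controls of the same day these limits were at least 2.44-fold, at least 3.42-fold and at least 2.95-fold higher. In each case 1 pool carried nearly all reads, and no chemical passed by limma (smallest adjusted p = 0.18, 2 chemicals at an unadjusted p under 0.05) or by voom. Against naphthalene, 18 chemicals shared a difference of -0.89 (SE 0.37) with a limma adjusted p of 0.022 over the 21 comparisons, but of at least 0.47 over all genes. Those 18 comparisons are the same test repeated, since each sets a group at 0 reads against naphthalene. They all rest on the 2 naphthalene pools with reads, of which pool D held 14 and pool C 1. Adjustment over the 21 comparisons therefore hardly changes their p.

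ADORA2AA, an adenosine receptor, had reads in 86 of 88 exposed pools and in all 5 control pools. Exposed pools ranged between -2.39 and 2.96 log2 CPM (median 1.55), and control pools between -1.72 and 2.73 log2 CPM, with 54, 1, 43, 11 and 56 reads. The 2 ranges overlapped almost completely. The highest group mean was that of 1,8-dimethylnaphthalene, with 47, 55, 72 and 47 reads and a log2 fold change of 1.22 (SE 0.84). The lowest was that of 2,3-dimethylnaphthalene, with 40, 32, 1 and 6 reads and a fold change of -0.87. No chemical passed by limma (smallest adjusted p = 0.58), 0 had an unadjusted p under 0.05, and voom gave 0 by either measure. With an SE of 0.84, a change of 1 log2 unit would not have stood out from the spread between pools.

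The structures were also set against the levels across the 22 chemicals, for the 4 genes with reads in at least 1 in 2 pools. The number of alkyl carbons and the number of substituted alpha positions, those next to the ring fusion, gave 8 relations. Against the number of substituted alpha positions, NT5E gave a Pearson's r of -0.49 (permutation p = 0.020, adjusted 0.16 over the 8) and Spearman's rho of -0.54 (permutation p = 0.010, adjusted 0.083). Without the 1,4,5-trimethyl derivative (3 alpha positions) and the 1,4,6,7-tetramethyl derivative (2 alpha positions) r was -0.47. The first is the farthest from the median, but the second was taken from several chemicals tied for next. Within the days r was -0.55 (permutation p = 0.082) and -0.46 (permutation p = 0.16). ENTPD1 gave r of 0.36 (permutation p = 0.099) and rho of 0.41 (permutation p = 0.055) with the number of alkyl carbons, adjusted 0.27 and 0.22. Without the 2 chemicals with most carbons its r was 0.54 (permutation p = 0.015), and within the days 0.44 and 0.37. For NT5DC2, r was 0.23 with carbons and -0.18 with alpha positions. No relation passed after adjustment.

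Other genes of nucleotide metabolism passed the adjusted p in few exposures. They were taken by symbol pattern for nucleotide transport, salvage, synthesis and interconversion, so that the list is mostly of purine genes but also holds DCTD, an enzyme of pyrimidine metabolism, and NUDT21, a factor of mRNA 3′ end processing. Of the 29 measured genes of this list, 3 rose in at least 1 chemical at an adjusted p of at most 0.05, 1 fell and 25 did neither. That is 7 tests past the adjusted p as higher and 1 as lower, of 638 tests (1.25%, near the background of 1.2%). With the fold change also required, 1 test remained (0.157%). The median log2 fold change was 0.02 against -0.01 over all genes. AHCY, which splits S-adenosylhomocysteine into homocysteine and adenosine, rose in 5 chemicals, with log2 fold changes from 0.33 (1,2-dimethylnaphthalene, limma adjusted p = 0.045) to 0.40 (the 1,4,5-trimethyl derivative, adjusted p = 0.011). The other 3 were 1,4-, 1,7- and 2,3-dimethylnaphthalene. DCTD, the deoxycytidylate deaminase, rose with 1,7-dimethylnaphthalene (0.70, adjusted p = 0.0016). PAICS, an enzyme of purine synthesis, rose with 1,3-dimethylnaphthalene (2.46, adjusted p = 0.043), and ADSL, the adenylosuccinate lyase, fell with the 1,4,5-trimethyl derivative (-0.55, adjusted p = 0.029). The control pools of PAICS were low and spread widely (0.83 ± 1.69 log2 CPM, SD). Against the same control pools PAICS was higher in 20 of the 22 chemicals and AHCY in 21, and ADSL was lower in 22.

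Downstream of the adenosine receptors, 1 of 14 measured genes of cyclic AMP signalling passed. PRKACAB, a catalytic subunit of protein kinase A, fell with 1,7-dimethylnaphthalene (log2 fold change -0.80, SE 0.22, limma adjusted p = 0.019), and the 14 genes had a median of -0.0033. In 308 tests this 1 result past the adjusted p is 0.325%, below the background of 1.2%. As a check of the tissue, 9 markers of muscle, heart, blood, neurons and vessels were taken, and 8 of them had reads in every pool. The exception was TNNI1B, the only heart marker, with reads in 22 exposed pools and in 0 control pools. The list therefore says little about the heart. Of the 9 markers only NEUROD1, a neuronal transcription factor, passed, and it was lower with 1,7-dimethylnaphthalene (-0.60, adjusted p = 0.040). This was 1 of 198 tests (0.505%, against a background of 1.2%), and with that chemical 3.59% of all genes fell.

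The genes whose log2 values followed those of NT5DC2 most closely over the 93 pools were ZEB2B, SOX4A, TCF12, COL4A2 and MAPTA, with Pearson's r between 0.51 and 0.53 over pools and between 0.67 and 0.79 over the 23 group means. For ENTPD1 the closest 4 were RPL7L1, TSPAN7, TOMM20B and CYP1A (r 0.43 to 0.48 over pools, 0.41 to 0.52 over groups). The closest gene to ADORA2AA was LCK (r = 0.33), followed by GCNT3, SPATS1, AP2M1B and TPM1. To NT5E it was CGA (r = 0.34), followed by SLC25A13, WDTC1, SI:DKEY-16L2.17 and SLC2A13B. P2RY13 was closest to PLS1 (r = 0.40), then a gene known only by a clone number, COASY, CASR and ABCG1, and P2RY10 to CNR2 (r = 0.49), then CEL.2, NSDHL, NUDT5 and SI:CH1073-228J22.2. Genes compared in this way share the same libraries, and PLS1 and CNR2 had reads in only 7 and 1 of the 93 pools. Among the 6 genes themselves the correlations were weak, the strongest being -0.24 between NT5DC2 and ADORA2AA and -0.21 between NT5DC2 and ENTPD1.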

How the data were processed

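TempO-Seq (zebrafish S1500+ panel) was run on whole-embryo RNA. The authors obtained counts with TempO-SeqR, summed the probes of a gene, adjusted for exposure day with ComBat_seq, normalized by the upper quartile (edgeR, version not given in the sources used here; build GRCz11) and set 1 day 1 control aside as an outlier. The deposited table holds log2 CPM with a prior count of 2 for 93 of 94 samples and 3068 genes; 0 columns were unmapped. The authors' table of fold changes and p-values was not used. Reads were recovered from the log2 steps.

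Groups follow the sample titles. limma 3.58.1 (R 4.3.3) fitted all 93 pools in 23 groups without covariates, each chemical minus the 5 controls, with Benjamini-Hochberg adjustment over all genes; a call needs an adjusted p not over 0.05 together with a log2 change of 1 or more in size, and the adjusted p alone was added after seeing the data. The fit was tested on simulated data. Fisher's exact tests and the permutations of the structure relations (100000) used SciPy 1.17.1 and NumPy 2.4.6. The exact permutation tests of exposed against control pools were run in R. Named genes are the 6 genes, listed pathway and marker genes past the adjusted p, and the 5 nearest genes to each by correlation. Of these nearest genes 1, for ENTPD1, is not reported here. The members and lists were chosen with earlier results of these data known. No coordinates or sequences are given. The confidence intervals come from the limma fits and rest on the spread between pools. Limits from reads allow for counting error in the group without reads, or with 0 in the controls, and not for the spread between pools.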

Additional observations from a re-analysis of the deposited data

Results flagged for a closer look

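Within a group of 4 or 5 pools, 1 pool stood apart from the rest by Dixon's test in 29 of the 138 combinations of gene and group, of which 107 held at least 2 different values. For NT5DC2, ENTPD1 and ADORA2AA these were 7 of 69 combinations, where chance marks about 1 in 20. For NT5DC2 these were 2-ethylnaphthalene A at 6.44 log2 CPM and the 1,6,7-trimethyl derivative A at 7.21. For ENTPD1 they were 1,4-dimethylnaphthalene C at 5.99 and 2,3-dimethylnaphthalene B at 5.93. For ADORA2AA they were 1,8-dimethylnaphthalene D at 2.84, 1-ethylnaphthalene C at -0.72 and 2-ethylnaphthalene D at -1.26.

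For the 3 sparse genes a single pool with reads among pools at 0 is marked by construction, and the chance rate does not apply. NT5E had 18 reads in the 1,4,5-trimethyl derivative E, 16 in the 1,4,6,7-tetramethyl derivative B, 14 in the 1,6,7-trimethyl derivative B, 35 in 1,7-dimethylnaphthalene B, 33 in 1,8-dimethylnaphthalene D, 64 in 2,7-di-tert-butylnaphthalene E, 42 in 2,7-dimethylnaphthalene D, 20 in 2-isopropylnaphthalene D and 31 in control pool B of day 2. P2RY10 had 13 reads in 1,7-dimethylnaphthalene D, 17 in 1,8-dimethylnaphthalene E, 1 in 2,6-diethylnaphthalene B and 14 in naphthalene D. P2RY13 had 1 read in 1,2-dimethylnaphthalene E and in 2,7-di-tert-butylnaphthalene E, 2 in 1,3-dimethylnaphthalene C and in 1,4-dimethylnaphthalene E, 29 in the 1,4,5-trimethyl derivative E, 7 in 1,5-dimethylnaphthalene E, 24 in 1-methylnaphthalene C, 10 in 2-butylnaphthalene A and 8 in 2-ethylnaphthalene C.

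The P2RY13 change of the chemicals against controls of the same day differed between the days by 3.41 on the log2 scale (limma adjusted p = 0.042). This contrast was added after the counts had been seen, and that call was lost without control pool 1A, 1C, 2A or 2B. The contrast contains the difference between the control pools of the 2 days. Their means were 1.41 log2 CPM on day 1 and -1.67 on day 2, which is -3.08 for day 2 minus day 1 (limma adjusted p = 0.58).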

How the results depend on the processing

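NT5DC2 passed the adjusted p in 3 chemicals and in 2 to 4 under every alternative but 2: 0 passed with separate fits or the exact permutation test, and 2 to 4 passed when single pools were left out. That permutation test was adjusted over the 22 chemicals and not over all genes, and 4 pools against 5 allow no p below 0.016. To pass, many chemicals would have to reach that p, so 0 passing says little here or for ENTPD1. ENTPD1 passed in 1 chemical, in 2 with only genes of a mean log2 value of at least 0 or with a variance trend, and in 0 with separate fits, same-day controls, an exposure day covariate, voom or the exact permutation test (0 to 3 with single pools left out). P2RY13 was called in 1 chemical, in 11 with same-day controls or the day covariate, and in 0 with log2(CPM + 1), log2(CPM + 4), separate fits or the exact permutation test (0 to 7 with single pools left out). By the adjusted p alone it passed in 11 with same-day controls or the covariate and in 0 with separate fits or the permutation test (0 to 7). The cause of these changes was not tested. Same-day controls and the day covariate are 1 model here, since each chemical was exposed on 1 day only. They therefore count as 1 alternative and not as 2. Its difference between the days was 4.88 and no longer past the threshold with voom (2.99 to 4.13 without single control pools), and its day 2 mean difference turned to 0.49 without control pool 2C (lowest -0.58). The share of exposed minus control pools with P2RY13 reads was -41.8 percentage points, -47.5 with at least 2 reads, -50.9 with at least 5 and -88.6 on day 1, each past an exact p of 0.05 except the first (-56.8 to -31.8 without single control pools). For NT5E it was 36.8 (31.8 to 56.8). Both counts join pools of different chemicals, and no share over all genes is given for them. Pools with the same letter did not deviate together (median r 0.0015, against -0.0009 for other letters), and with the letter as a replicate block NT5DC2 still passed in 3 chemicals, ENTPD1 in 1 and P2RY13 in 1. Counts of NT5E, ADORA2AA and P2RY10 stayed at 0 in all settings run for them; NT5E, P2RY10 and P2RY13 had no value under the filter on low means. P2RY13 had no read in 74 of the 93 pools.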
